A study of Mus musculus with 48 samples.

Results

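The comparison described here is that of mouse embryonic stem cells (ESCs) treated with V580 for 48 h against the control (Con) at 48 h. V580 is the name of the combination of vitamin C (Vc) with AM580, a synthetic agonist of retinoic acid receptor alpha. The members were the 2 V580 and 2 Con libraries labelled 48 h, 4 of the 48 samples of the series, and they were chosen by their labels alone. The cells were female ESCs, C57BL/6 by the labels, that had been kept on inactivated feeder fibroblasts in medium with 2i and LIF, freed of most feeders by their faster attachment, and plated on fibronectin without 2i and LIF. All groups shared this change of medium. Con received neither compound, the AM580 and Vc groups received 1 compound each, and V580 received both, with 2 libraries per group at 24 h and again at 48 h. The aim of the treatment was to turn ESCs into gonadal somatic cell-like cells (GSCLCs). The values are FPKM, fragments per kilobase of gene scaled to the mapped fragments of each library, from poly-A RNA sequencing of whole cultures, so fewer cells of a type and less RNA per cell cannot be told apart. Nothing in the labels says that the 2 libraries of a group came from separate cultures, and the p-values measure only the spread between these libraries.

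Retinoic acid enters cells, is carried by small binding proteins and binds nuclear receptors (RARs) that sit on DNA as partners of RXR. Genes with a receptor site close to their start respond within hours, and among the best known are Cyp26a1, the enzyme that degrades retinoic acid, and Rarb, a receptor gene induced by its own ligand. In ESCs, retinoids are known for turning on Hox genes and for ending the pluripotent state. Vitamin C is a cofactor of dioxygenases that use iron and oxoglutarate, among them the TET enzymes that oxidise methylated DNA, the collagen prolyl hydroxylases and the prolyl hydroxylases that mark HIF, the hypoxia factor, for degradation.

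The promoters of 4 called genes, 2 that rose and 2 that fell, are printed here, because 2 of them hold a textbook type of retinoic acid receptor site and 2 hold the core of a hypoxia response element. The sequences are from RefSeq for GRCm38.p6, 5′ to 3′ on the strand of the gene, and end 1 base before the annotated start. The first pair is shown with a direct repeat in capitals, in which 2 copies of AGGTCA or AGTTCA or GGGTCA or GGTTCA, in the same direction on either strand, are separated by 5 bases (DR5). Cyp26a1 is on chr19:37697708-37697807, plus strand, and Rarb on chr14:16575477-16575576, minus strand.
Cyp26a1: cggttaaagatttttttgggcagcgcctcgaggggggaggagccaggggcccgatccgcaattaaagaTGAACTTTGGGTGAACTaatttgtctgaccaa
Rarb: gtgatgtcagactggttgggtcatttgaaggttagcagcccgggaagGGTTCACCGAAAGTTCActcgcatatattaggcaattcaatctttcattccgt
The second pair is shown with ACGTG, searched on both strands (CACGT on the other), in capitals. Pgk1 is on chrX:106186900-106187099, plus strand, and Bnip3 on chr7:138909507-138909706, minus strand, where the 2 orientations overlap in one palindrome.
Pgk1: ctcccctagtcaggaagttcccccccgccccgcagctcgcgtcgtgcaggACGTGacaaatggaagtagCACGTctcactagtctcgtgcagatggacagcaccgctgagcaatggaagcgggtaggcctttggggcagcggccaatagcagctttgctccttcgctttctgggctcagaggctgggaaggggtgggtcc
Bnip3: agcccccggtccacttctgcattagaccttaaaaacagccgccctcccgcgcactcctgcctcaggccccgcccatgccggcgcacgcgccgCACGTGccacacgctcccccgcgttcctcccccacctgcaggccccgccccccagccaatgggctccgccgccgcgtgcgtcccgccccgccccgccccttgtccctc

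The search took each promoter window of a gene, which was longer than the sequence printed here and reached past the start. Shares are of genes with a match in any window. The DR5 letters were found in 31 of 27025 genes with a window (0.115%). They were in 2 of the 139 genes called higher in V580 that had a window, Cyp26a1 and Rarb. They were in no window of the 108 genes called lower, and in none of the 4 Hox genes called higher that had a window. A repeat of the same copies with 2 bases between (DR2) was in 84 of 27025 genes (0.311%) and, among those called higher, in Tinagl1 alone. ACGTG is a short word and was found in 21.8% of all genes with a window. The share was 30.3% of those tested, 21.6% of those called higher and 37.0% of those called lower. A match describes the letters in the window and is not a measured binding site.

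The 2 Con libraries differed from each other by 0.102 (root mean square of the log2 differences over all tested genes) and the 2 V580 libraries by 0.11, whereas V580 and Con libraries differed by 0.43 to 0.443. Depth was even, with an estimated 19800000 and 21000000 fragments for Con and 20000000 and 18200000 for V580. Genes were tested with limma on log2(FPKM + 1), a scale on which changes of low genes are understated. A gene was called when its Benjamini-Hochberg adjusted p was below 0.05 and its change was at least 2-fold on that scale. Of 10644 genes tested, 339 (3.18%) were called, 196 (1.84%) higher and 143 (1.34%) lower in V580. Changes of at least 4-fold were found for 34 genes that rose and 14 that fell. The p alone passed for 6078 genes (57.1%), and in 80.5% of all tested genes the V580 and Con libraries did not overlap, so the size of a change separated genes more than its p did. The median log2 difference over all tested genes was -0.02. The plot of level against change shows called genes in both directions over a wide range of expression. Genes at the lowest levels could not reach 2-fold on this scale.

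**Figure D1:**
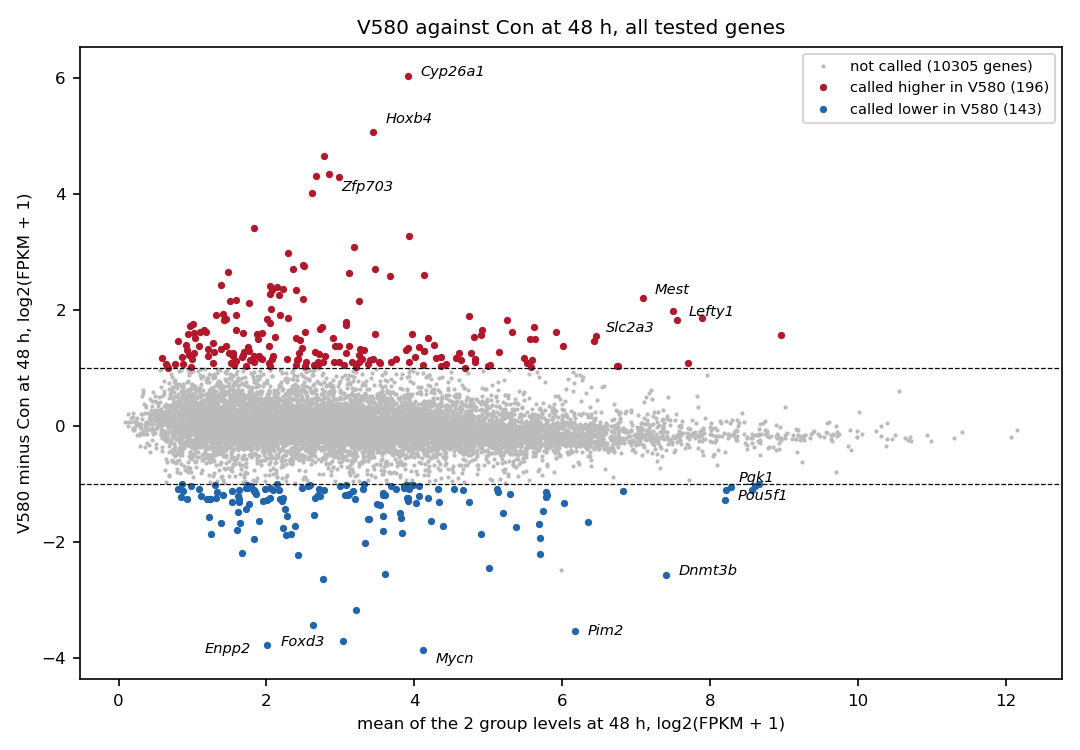
Each point is 1 of 10644 genes, with its mean level over the 4 libraries on the x axis and the log2 difference V580 minus Con at 48 h on the y axis, both on the log2(FPKM + 1) scale. Red points are the 196 genes called higher and blue points the 143 called lower, and the dashed lines mark 2-fold. The grey point near -2.5 is Gapdh, whose 2 libraries differed widely in V580 and also in Vc and AM580 at 48 h.

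Among the genes of retinoic acid metabolism and reception, Cyp26a1 had the largest rise of all. Of 14 tested members of this list (22 members, 6 of them not listed in the table used here), 5 were called higher and none lower, against 1.84% and 1.34% of all tested genes. The list's median log2 difference was 0.33, against -0.02 over all tested genes. Of the 14, 3 (Aldh1a2, Rarb and Stra6) passed the filter only through AM580 and V580 libraries, having 1 FPKM in fewer than 2 Con and Vc libraries, so that they could hardly be called lower. Cyp26a1 (chr19:37697798-37701536, GRCm38), whose DR5 letters lie 32 to 16 bases before the RefSeq start that the printed window ends at, stood at 1.05 and 0.67 FPKM in Con and at 119 and 123 FPKM in V580. This was a 140-fold ratio of means and a log2 difference of 6.04 ± 0.09 (SE, n = 2 against 2, limma adjusted p = 1.3e-15), and the groups were far apart. Cyp26a1 was also high with AM580 alone, at 87.4 and 93.9 FPKM, and stayed low with Vc alone, at 0.314 and 0.584 FPKM. Rarb (chr14:16430839-16819156) was nearly silent in Con, at 0.0191 and 0.0812 FPKM, and reached 2.01 and 1.76 FPKM in V580, a log2 difference of 1.46 ± 0.07. Its DR5 letters lie 53 to 37 bases before the start of the window's transcript.

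Called members of this list also act on the supply of retinoid. Dhrs3, a reductase that turns retinal back into retinol, was at 1.014 and 1.006 FPKM in Con and at 12.503 and 11.763 FPKM in V580. Stra6, the receptor through which cells take up retinol, was at 0.449 and 0.513 FPKM in Con and at 2.94 and 3.03 FPKM in V580. Both genes passed the call rule, which 1.84% of all tested genes did in this direction. The receptors already present in ESCs were not called. Rara, the receptor AM580 binds, was at 10.1 and 10.99 FPKM in Con and at 14.1 and 12.9 FPKM in V580 (log2 difference 0.33). Rarg was at 56.3 and 58.2 FPKM in Con and at 33.9 and 31.0 FPKM in V580, a log2 difference of -0.80 that missed the 2-fold rule. Crabp2, which delivers retinoic acid to the nucleus, stood at 12.4 and 12.04 FPKM in Con and at 15.8 and 15.5 FPKM in V580, while AM580 alone gave 31.0 and 31.9 FPKM.

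Genes known to respond to retinoids in ESCs gave 8 called higher and 1 lower of 14 tested, with a median of 1.44. This list shares Hoxb4 and Hoxa3 with the list of Hox genes described next, and 4 of the 14, these 2 among them, passed the filter only through AM580 and V580 libraries. The shares of all tested genes against which this and the following counts stand are 1.84% higher and 1.34% lower. Zfp703, a zinc-finger corepressor, was at 0.608 and 0.588 FPKM in Con and at 29.1 and 33.8 FPKM in V580, a log2 difference of 4.34. Its 24 h values were 2.49 and 2.50 FPKM in Con and 2.41 and 2.69 FPKM in V580, so its difference was seen at 48 h and was not seen at 24 h. Meis1 and Meis2 encode homeodomain partners of Hox proteins, and both rose, Meis1 from 0.392 and 0.302 FPKM to 4.99 and 4.9 FPKM. Nrip1, a corepressor of ligand-bound nuclear receptors, rose from 1.36 and 1.13 FPKM to 6.73 and 6.54 FPKM. Lefty1, a secreted inhibitor of Nodal, was at 99.9 and 96.2 FPKM in Con, 344 and 357 FPKM in V580 and 492 and 507 FPKM with AM580 alone. Egr1, an immediate early gene, was the member called lower, from 11.9 and 14.5 FPKM to 5.57 and 4.27 FPKM.

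Hox genes encode the homeodomain factors that set position along the body axis, and they lie in clusters that open in order under retinoids. Of 39 Hox genes, 19 were not listed in the table used here and 7 were below the filter. Of the 13 tested, 10 were called higher and none lower, with a median of 2.42. These figures are partly fixed by the filter, since 10 of the 13 passed it only through AM580 and V580 libraries, 9 of them called higher, and of the other 3 Hoxb9 was called. The genes of the Hoxb cluster on chromosome 11 led the list. Hoxb4 was at 0.863 and 0.87 FPKM in Con and at 57.4 and 66.9 FPKM in V580, a log2 difference of 5.08 ± 0.09 (limma adjusted p = 2.9e-15). Hoxb5 went from 0.379 and 0.341 FPKM to 31.3 and 35.4 FPKM, and Hoxb6 from 0.589 and 0.46 FPKM to 22.1 and 25.2 FPKM. All these genes were close to silent in Con and clearly expressed in both V580 libraries. Hoxb8 reached 25.9 and 28.7 FPKM and Hoxb9 31.9 and 35.9 FPKM in V580, from below 1 FPKM in each Con library. Hoxb7, between Hoxb8 and Hoxb6 on the chromosome, reached 5.21 and 5.57 FPKM, from 0.391 and 0.461 FPKM. From the other clusters, Hoxa3 rose from 0.0669 and 0.166 FPKM to 6.13 and 5.9 FPKM, and Hoxc4 and Hoxc5 rose with log2 differences of 2.42 and 1.72. Hoxc6, Hoxc8 and Hoxc10 were tested and were not called. With AM580 alone Hoxb4 stood at 38.7 and 37.0 FPKM, below both V580 libraries. Of the 13 tested Hox genes, none was called between V580 and AM580, and 8 were higher in V580 by the adjusted p alone, against 8.51% of all tested genes.

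**Figure D2:**
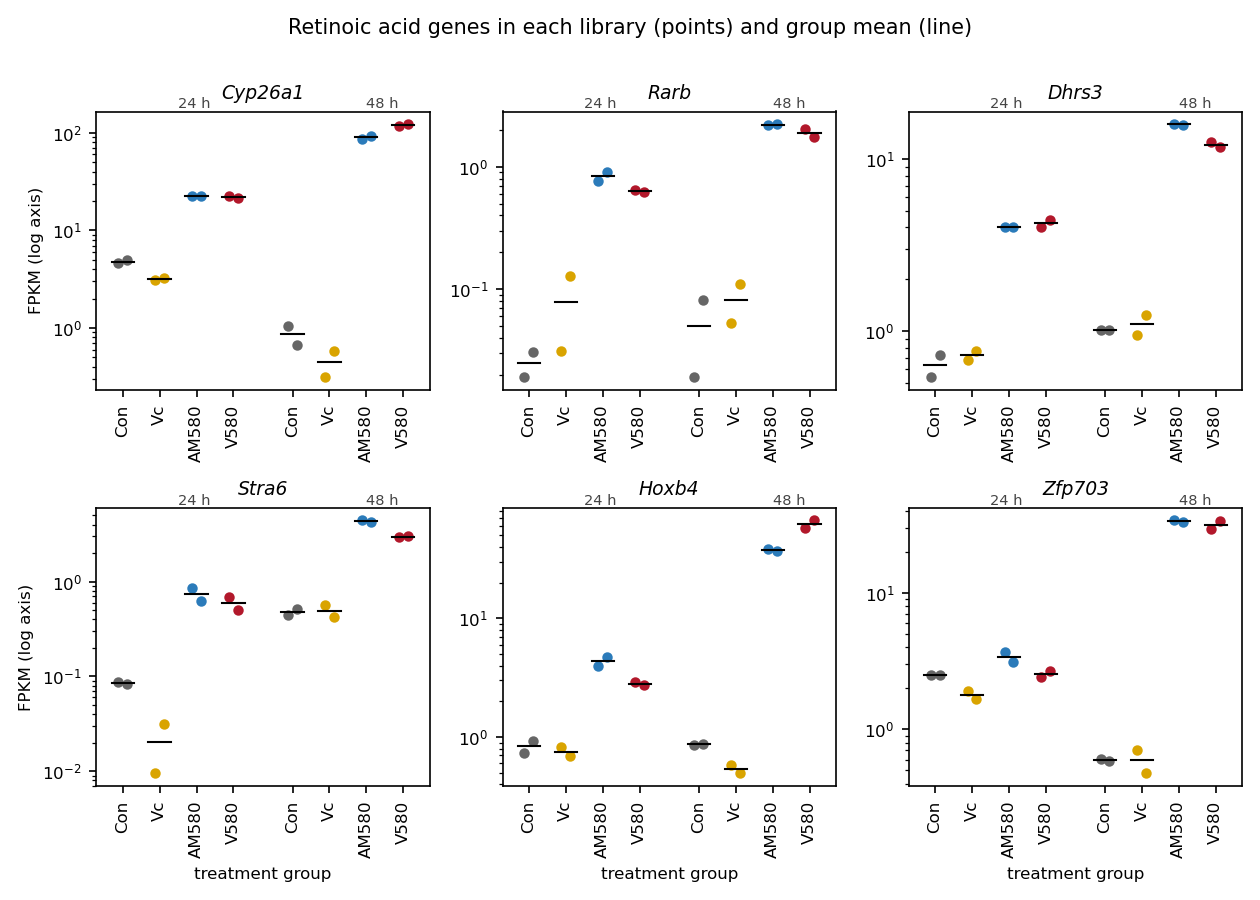
FPKM on a log axis of Cyp26a1, Rarb, Dhrs3, Stra6, Hoxb4 and Zfp703 in the Con, Vc, AM580 and V580 groups at 24 h and 48 h. Points are libraries and lines are the means of 2, and at 48 h V580 and AM580 lie far above Con and Vc for each of the 6 genes, with Cyp26a1 at 119 and 123 FPKM in V580.

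Outside these lists, a membrane protein gene was among the 10 largest rises. Pmp22, a component of the myelin sheath that is widely expressed in embryos, was at 2.07 and 2.16 FPKM in Con and at 25.0 and 25.6 FPKM in V580. It was higher still with AM580 alone, at 43.6 and 38.7 FPKM.

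The 10 largest falls among the called genes were those of Mycn, Enpp2, Foxd3, Pim2, Sema6a, Ifitm1, Slc27a2, Dnmt3b, Sall1 and Hes6. Mycn (chr12:12936093-12941914), a MYC family factor that drives growth in ESCs, was at 63.9 and 67.1 FPKM in Con and at 3.94 and 3.14 FPKM in V580, a log2 difference of -3.88 ± 0.06 (limma adjusted p = 1.6e-15). Foxd3, a forkhead factor needed for the epiblast, was at 27.1 and 30.4 FPKM in Con and at 1.48 and 1.04 FPKM in V580. Pim2, a kinase that promotes survival, was at 241 and 247 FPKM in Con and at 20.1 and 20.2 FPKM in V580. The ratios of means, Con over V580, were 18.5 for Mycn, 22.8 for Foxd3 and 12.1 for Pim2. Sall1, a zinc-finger factor that partners with Nanog, was at 28.4 FPKM in both Con libraries and at 3.95 and 4.0 FPKM in V580. Hes6, which blocks the Notch effector Hes1, was at 76.1 and 73.8 FPKM in Con and at 12.9 and 12.7 FPKM in V580. Enpp2, or autotaxin, which makes lysophosphatidic acid, was at 13.6 and 14.1 FPKM in Con and at 0.0779 and 0.0852 FPKM in V580, the largest ratio among the 10. Sema6a, a transmembrane semaphorin, was at 19.3 and 19.4 FPKM in Con and at 0.82 and 0.948 FPKM in V580. Slc27a2, a fatty acid transporter, fell from 16.1 and 15.9 FPKM to 1.9 and 1.53 FPKM, and Ifitm1, an interferon-inducible membrane protein, from 28.2 and 25.5 FPKM to 1.87 and 2.25 FPKM.

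The genes of naive pluripotency did not move together. Of 22 tested, 3 were called higher and 4 lower, and the median was -0.05. Pou5f1 (Oct4, chr17:35506018-35510772), the central factor of pluripotency, was at 451 and 461 FPKM in Con and at 189 and 185 FPKM in V580, a log2 difference of -1.28 ± 0.06 (limma adjusted p = 7.1e-11). It therefore remained among the abundant transcripts at 48 h. Fgf4, the growth factor through which ESCs start to differentiate, fell from 107 and 114 FPKM to 24.2 and 21.96 FPKM, and Tdgf1, the Nodal co-receptor, from 550 and 560 FPKM to 256 and 257 FPKM. The call of Tdgf1 was lost with quantile normalization (-0.90). Utf1, a chromatin factor of undifferentiated cells, fell from 544 and 606 FPKM to 295 and 275 FPKM. The members called higher were Klf2, Tbx3 and Fbxo15, and Klf2, a Krüppel-like factor of the naive state, went from 8.96 and 11.5 FPKM to 25.7 and 27.1 FPKM. Sox2, the partner of Pou5f1, was at 76.2 and 77.2 FPKM in Con and at 43.5 and 44.1 FPKM in V580, and its log2 difference of -0.79 missed the 2-fold rule. Nanog was at 18.1 and 17.7 FPKM in Con and at 17.4 and 17.2 FPKM in V580. The difference of -0.05 had a 95% interval of -0.15 to 0.06 (limma adjusted p = 0.44), an interval that does not reach 2-fold. With AM580 alone Nanog stood at 26.1 and 25.9 FPKM.

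Most tested genes of the formative and primed epiblast, the states that follow the naive one, fell. Of 8 tested (12 of the 20 members were not listed in the table used here), none was called higher and 5 were called lower, with a median of -1.52. Dnmt3b (chr2:153649450-153687730), which sets new DNA methylation, was at 403 and 423 FPKM in Con and at 69.0 and 68.1 FPKM in V580, a log2 difference of -2.57 ± 0.04. Dnmt3a, the related methyltransferase, was at 81.5 and 84.0 FPKM in Con and at 36.5 and 33.2 FPKM in V580. Lef1, the partner of beta-catenin at Wnt targets, was at 5.45 and 6.14 FPKM in Con and at 0.563 and 0.411 FPKM in V580. Fgf5, the standard marker of the primed epiblast, was at 21.98 and 20.7 FPKM in Con and at 5.22 and 5.49 FPKM in V580, while AM580 alone left it at 17.0 and 15.7 FPKM. At 24 h Dnmt3b was at 151 and 145 FPKM in Con and at 104 and 105 FPKM in V580, so the Con libraries were higher at 48 h than at 24 h and the V580 libraries lower.

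**Figure D3:**
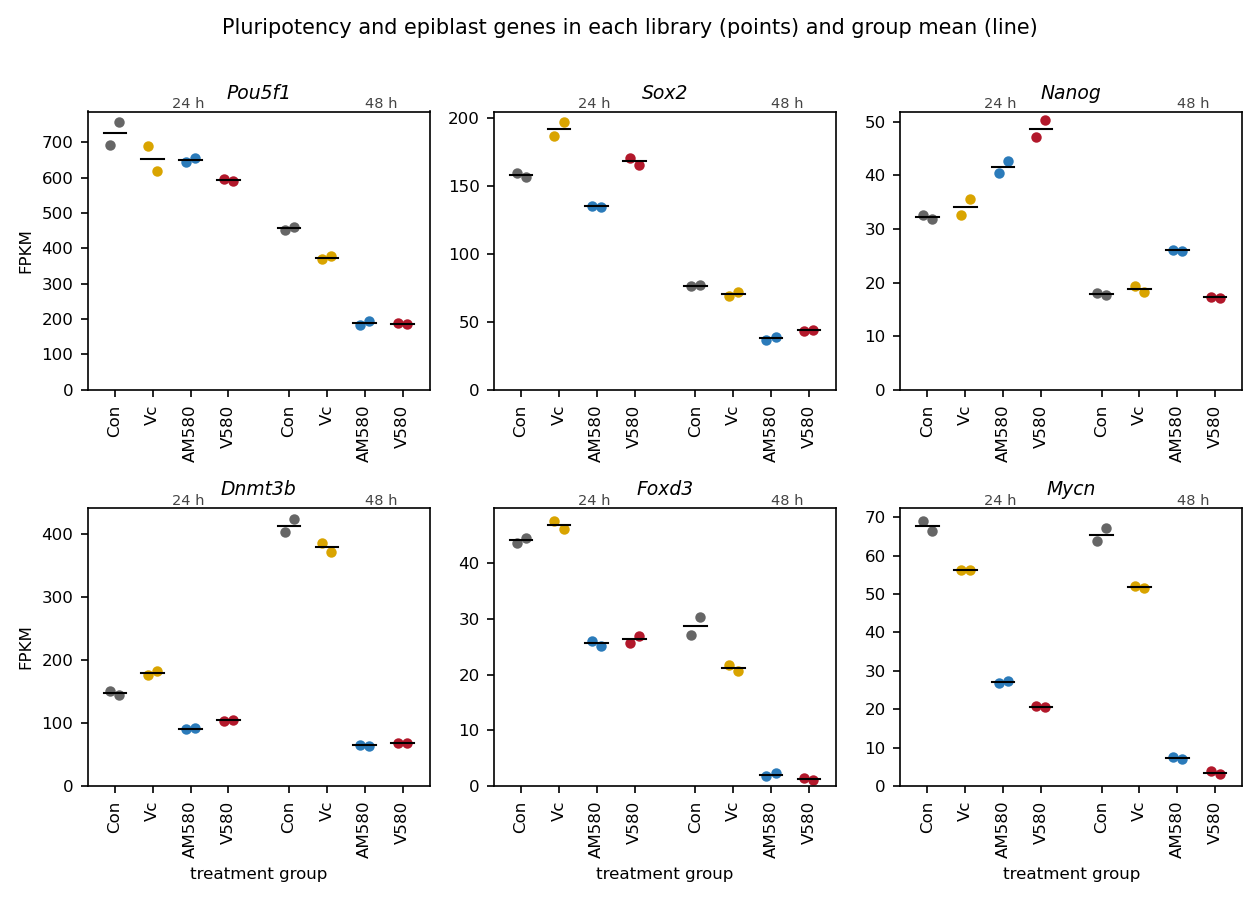
FPKM on a linear axis from 0 of Pou5f1, Sox2, Nanog, Dnmt3b, Foxd3 and Mycn in the Con, Vc, AM580 and V580 groups at 24 h and 48 h, with points for libraries and lines for the means of 2. At 48 h Dnmt3b, Foxd3 and Mycn were low in V580 and AM580, Pou5f1 was at 189 and 185 FPKM in V580, and Nanog in V580 lay at the Con level.

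The gonadal somatic genes, which the induction aims at, held no called rise at 48 h. Of 25 members, 22 were in the table and 12 of these were below the filter, and of the 10 tested none was called higher and 2 were called lower, with a median of -0.08. Gata4 (chr14:63198922-63271692), the factor that opens gonad development, was at 0.863 and 0.742 FPKM in Con and at 2.65 and 2.05 FPKM in V580. Like Wnt4, it passed the filter only through AM580 and V580 libraries, and it is also in the list of extraembryonic endoderm genes. Its log2 difference of 0.89 ± 0.10 passed the p (limma adjusted p = 4.2e-06) and missed the 2-fold rule, and it passed the rule with a pseudocount of 0.1 (1.43) and without V580 replicate 2 (1.02). AM580 alone gave 5.32 and 5.72 FPKM, above both V580 libraries, and the difference V580 minus AM580 was -0.97. For scale, the mean of Gata4 was 4.94, 17.0, 30.0 and 46.1 FPKM in the V580 cultures at days 4, 6, 8 and 10, and 144 FPKM in the libraries labelled E12.5_GC. Foxl2, the granulosa cell factor, was below the filter, at 0.124 and 0.0146 FPKM in Con and 0.138 and 0.286 FPKM in V580. These are an estimated 8 and 1 fragments against 9 and 17, and a difference of Foxl2 was not tested. Nr5a1, which drives steroid-producing cells, was below 0.1 FPKM in all 4 libraries, and Lhx9 and Emx2 were below the filter too. Wt1, already expressed in ESC cultures here, was at 9.86 and 10.3 FPKM in Con and at 14.3 and 14.2 FPKM in V580, a log2 difference of 0.46. Cd63, the surface protein used by the study to enrich GSCLCs, was at 25.7 and 27.2 FPKM in Con and at 24.4 and 22.9 FPKM in V580. The members called lower were Fst (follistatin, an activin inhibitor of the ovary), from 4.31 and 5.04 FPKM to 0.577 and 0.668 FPKM, and Irx3, from 7.7 and 6.93 FPKM to 1.85 and 1.8 FPKM. Of the 6 defining gonadal markers, Foxl2, Nr5a1, Lhx9 and Emx2 were thus below the filter, and Gata4 and Wt1 were tested and not called.

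Markers of other cells that the cultures could hold were measured beside these. For extraembryonic endoderm, 2 of 22 tested genes were called higher and none lower, the median was 0.57, and 17 were higher by the adjusted p alone, against 25.9% of all tested genes. Of the 22, 9 passed the filter only through AM580 and V580 libraries, both called genes among them. Gata6, the factor that specifies this lineage, was at 0.126 and 0.119 FPKM in Con and at 1.36 and 1.15 FPKM in V580, a log2 difference of 1.00 that lies on the 2-fold limit. The call was lost with median scaling (0.98), with quantile normalization (0.95), without V580 replicate 1 (0.94) and without Con replicate 2 (0.999). Cubn, the endocytic receptor cubilin, was the other called gene, with a log2 difference of 1.03 that lost its call with quantile normalization (0.97) and without V580 replicate 1 (0.993). Of the other defining markers, Sox17, Sox7, Foxa2, Dab2 and Lama1 had log2 differences of 0.43, 0.77, 0.36, 0.79 and 0.88. The summed level of the list was 461 and 471 FPKM in Con, 596 and 589 FPKM in V580 and 701 and 719 FPKM with AM580 alone, with Apoe its most abundant gene. Feeder fibroblasts share many genes with other mesenchymal cells, and of 12 tested fibroblast genes none was called higher and Dcn was called lower (log2 difference -1.09). Their summed level was 208 and 214 FPKM in Con and 269 and 262 FPKM in V580, and Acta2, the most abundant, was at 114 and 121 FPKM in Con and at 168 and 164 FPKM in V580. Col1a1 was at 15.1 and 15.7 FPKM in Con and at 21.2 and 21.0 FPKM in V580, Postn was below 1 FPKM in all 4 libraries, and Lum and Twist2 were below the filter. The part of feeder or endoderm RNA in the results above was not tested. None of the 6 tested genes each of the mesoderm, neural and trophoblast lists was called, and their medians were 0.19, -0.25 and 0.40. By the adjusted p alone 3 mesoderm genes were higher and none lower, 4 neural genes were lower and none higher, and all 6 trophoblast genes were higher. The shares of all tested genes were 25.9% higher and 31.2% lower. Foxc1 and Nkx2-5 (mesoderm), Pax6 (neural) and Krt7 (trophoblast) passed the filter only through AM580 and V580 libraries, so that they could hardly be lower. The list of Y-linked genes had no member in the table used here.

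**Figure D4:**
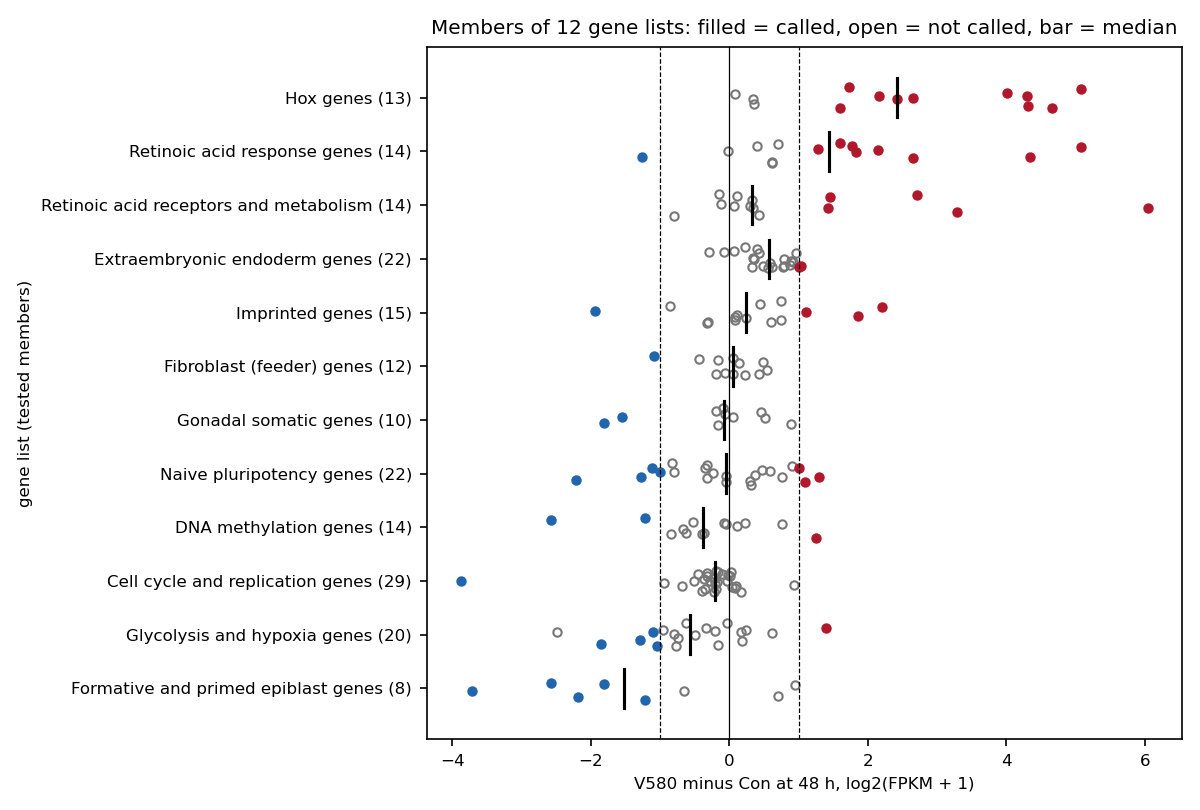
Log2 difference V580 minus Con at 48 h on the log2(FPKM + 1) scale for the tested members of 12 gene lists. Each point is a gene, filled where called and open where not, and the bar is the median of the list, which is 2.42 for the Hox genes, most of which passed the filter only through AM580 and V580 libraries, and -1.52 for the formative and primed epiblast genes.

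The signalling lists held 3 called genes each for Wnt and for BMP and TGF-beta, where 3.18% of all tested genes were called. Of 31 tested Wnt genes 1 was called higher (Fzd8, a receptor) and 2 lower (Lef1, and Sfrp1, a secreted inhibitor that fell from 17.1 and 18.3 FPKM to 6.03 and 6.36 FPKM). Of 26 tested BMP and TGF-beta genes Smad6, an inhibitory Smad, and Lefty1 were called higher, and Fst lower. None of 22 Hippo genes, 19 epithelial genes, 19 mesenchymal genes and 19 cholesterol genes was called, with medians of 0.13, -0.09, 0.22 and 0.21. By the adjusted p alone 10, 6, 9 and 12 of them were higher and 2, 8, 3 and 1 lower. Among the epithelial genes Krt7 passed the filter only through AM580 and V580 libraries. Of 29 cell cycle genes Mycn alone was called, while by the adjusted p alone 20 were lower and 2 higher, against 31.2% and 25.9% of all tested genes. Imprinted genes, which are read from 1 parental copy, gave 3 called higher and 1 lower of 15. Mest went from 60.2 and 64.1 FPKM to 289 and 292 FPKM, Peg10 from 125 and 121 FPKM to 451 FPKM in both V580 libraries, Grb10 from 18.4 and 18.2 FPKM to 39.9 and 40.9 FPKM, and Snrpn from 100 and 102 FPKM down to 25.9 and 25.3 FPKM. Of the genes of the 2-cell-like state, named after the cleavage embryo, 4 were tested and 3 were called higher. Of these 3, Zscan4b and Usp17la passed the filter only through AM580 and V580 libraries, so that they could hardly be called lower. Zscan4f went from 1.16 and 1.14 FPKM to 12.1 and 15.5 FPKM, but it belongs to a family of nearly identical copies, as do Zscan4b and Usp17la, and the share of each copy is uncertain.

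The machinery of DNA methylation and the vitamin C-dependent enzymes were followed because of the cofactor role of vitamin C. Of 14 tested DNA methylation genes 1 was called higher and 2 lower, with a median of -0.38. Beside the falls of Dnmt3a and Dnmt3b, Gadd45b, a stress gene linked to demethylation, rose with a log2 difference of 1.25. Dnmt1, which copies methylation at replication, was at 45.9 and 43.8 FPKM in Con and at 43.9 and 42.6 FPKM in V580. Tet1, the main TET enzyme of ESCs, was at 16.9 and 15.0 FPKM in Con and at 10.7 and 9.2 FPKM in V580, a difference of -0.63 on the log2(FPKM + 1) scale. Tet2 was at 0.728 and 0.8 FPKM in Con and at 2.01 and 1.93 FPKM in V580, a 2.58-fold ratio of means but a difference of 0.75 on the log2(FPKM + 1) scale, which missed the rule. Of 21 vitamin C transporters and dependent hydroxylases, Slc2a3 was called higher and Egln3 lower, with a median of 0.04.

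The glycolysis and hypoxia genes held more falls than rises in V580. Of 20 tested, 1 was called higher and 4 lower, the median was -0.57, and 12 were lower by the adjusted p alone, against 31.2% of all tested genes. ACGTG was in the promoter windows of 13 of the 19 members with a window (68.4%). The share was 30.3% of the genes tested and 37.0% of those called lower. Car9, which rose, and members that were not called are among the 13. A link between this word and the falls was not tested. Pgk1 (chrX:106187100-106203699), a kinase of glycolysis, was at 426 and 446 FPKM in Con and at 203 and 200 FPKM in V580, a log2 difference of -1.11 whose call was lost with quantile normalization (-0.91). Ldha, which makes lactate, was at 555 and 563 FPKM in Con and at 271 FPKM in both V580 libraries. Bnip3 (chr7:138890836-138909519), a mitochondrial protein induced by HIF, was at 22.1 and 23.0 FPKM in Con and at 9.58 and 7.76 FPKM in V580. The V580 libraries of these 3 genes lay under their Con libraries, in a comparison where 80.5% of all tested genes did not overlap. Egln3, a prolyl hydroxylase of HIF that is itself a HIF target, fell from 25.1 and 26.7 FPKM to 6.61 and 6.35 FPKM. Car9, a carbonic anhydrase also known as a HIF target, was the member called higher, from 0.153 and 0.165 FPKM to 2.13 and 1.97 FPKM. Car9 passed the filter only through AM580 and V580 libraries, so that it could hardly be called lower. Gapdh was at 85.7 and 109 FPKM in Con but at 76.1 and 2.87 FPKM in the V580 libraries. Its libraries were also far apart with Vc (an estimated 4388 and 255 fragments) and AM580 (5832 and 283) at 48 h. The gene has many near-identical copies, whose part in this spread was not tested, and its value is uncertain.

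The single treatments were set beside these values. AM580 against Con and Vc against Con share the Con libraries with the comparison above. AM580 against Con gave 344 called genes (3.23%), 248 higher (2.33%) and 96 lower (0.902%). Vc against Con gave 5 (0.047%), 1 higher (0.00939%) and 4 lower (0.0376%). V580 against Vc, which uses no Con library, gave 297 (2.79%), 183 higher (1.72%) and 114 lower (1.07%), and 53.8% of genes passed the adjusted p alone, 24.1% higher and 29.7% lower. V580 libraries differed from AM580 libraries by 0.204 to 0.211 (root mean square log2), from Vc libraries by 0.411 to 0.421. Pgk1 was at 225 and 228 FPKM with Vc alone and at 417 and 410 FPKM with AM580 alone, and Bnip3 at 10.7 and 10.5 FPKM with Vc and at 21.1 and 21.5 FPKM with AM580. Both genes in V580 were thus nearer to Vc than to AM580, and a little below Vc. Dnmt3b in V580 was close to AM580 alone, which gave 65.8 and 64.1 FPKM.

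The direct comparison of V580 with AM580 called 28 genes (0.263%), 3 higher (0.0282%) and 25 lower (0.235%) in V580. Of the 20 glycolysis and hypoxia genes 3 were called lower and none higher, with a median of -0.31. These were Slc2a1, Pgk1 (-1.03) and Bnip3 (-1.21). By the adjusted p alone 13 were lower, against 10.7% of all tested genes. Of the 21 vitamin C transporters and dependent hydroxylases 3 were called lower and none higher, with a median of -0.235. These were Slc2a1, which is in both lists, Slc2a3 and P4ha1. Slc2a1, the glucose transporter GLUT1, was at 106 FPKM in both Con libraries, 70.1 and 67.7 FPKM with Vc, 324 FPKM in both AM580 libraries and 123 and 129 FPKM in V580, so that V580 minus AM580 was -1.36 (limma adjusted p = 2.9e-11). Slc2a3, the transporter GLUT3, was at 303 and 281 FPKM with AM580 and at 139 and 145 FPKM in V580, and Con lay at 51.4 and 49.7 FPKM. P4ha1, the collagen prolyl hydroxylase subunit that uses vitamin C, was at 9.35 and 10.4 FPKM in Con, 4.37 and 4.35 FPKM with Vc, 22.5 and 20.7 FPKM with AM580 and 8.65 and 8.49 FPKM in V580. AM580 alone thus had the highest level of Slc2a1, Slc2a3 and P4ha1, and V580 was called lower than AM580. Ddit4, which restrains mTORC1 under stress, was at 59.9 and 57.8 FPKM in Con, 28.6 and 27.3 FPKM with Vc, 83.8 and 82.9 FPKM with AM580 and 31.6 and 35.99 FPKM in V580.

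Fgf5 was called lower in V580 than with AM580 too, with a log2 difference of -1.45, and so was Ifitm1, at -1.44, with 7.45 and 7.14 FPKM with AM580 and 11.1 and 9.83 FPKM with Vc. Trh, the precursor of thyrotropin-releasing hormone, was at 22.4 and 20.7 FPKM in Con, 20.1 and 15.4 FPKM with Vc, 29.7 and 26.1 FPKM with AM580 and 10.1 and 10.2 FPKM in V580.

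Of 19 tested epithelial junction and keratin genes 3, all keratins, were called lower in V580 than with AM580 and none higher, against 0.235% and 0.0282% of all tested genes. Krt8 was at 32.3 and 31.8 FPKM in Con, 101 and 95.7 FPKM with AM580 and 40.1 and 43.4 FPKM in V580, and its partner Krt18 was at 35.7 and 37.2 FPKM in Con, 81.3 and 81.7 FPKM with AM580 and 41.2 and 39.1 FPKM in V580. Krt19 had a difference of -1.21, and Krt7, also in the list, had one of -0.85 and was not called. Over the 22 extraembryonic endoderm genes the median of V580 minus AM580 was -0.45, with Srgn called lower, none called higher, and 18 lower by the adjusted p alone, against 10.7% of all tested genes. The 3 genes higher in V580 were Zscan4f, Magohb and Mep1b. Mep1b, a subunit of the protease meprin, was at 0.334 and 0.346 FPKM with AM580, 0.365 and 0.428 FPKM with Vc and 2.73 and 2.66 FPKM in V580. Magohb, a component of the exon junction complex, was at 13.7 and 12.6 FPKM in V580 and at 6.69 and 5.49 FPKM with AM580, but Vc alone gave 15.8 and 18.1 FPKM.

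**Figure D5:**
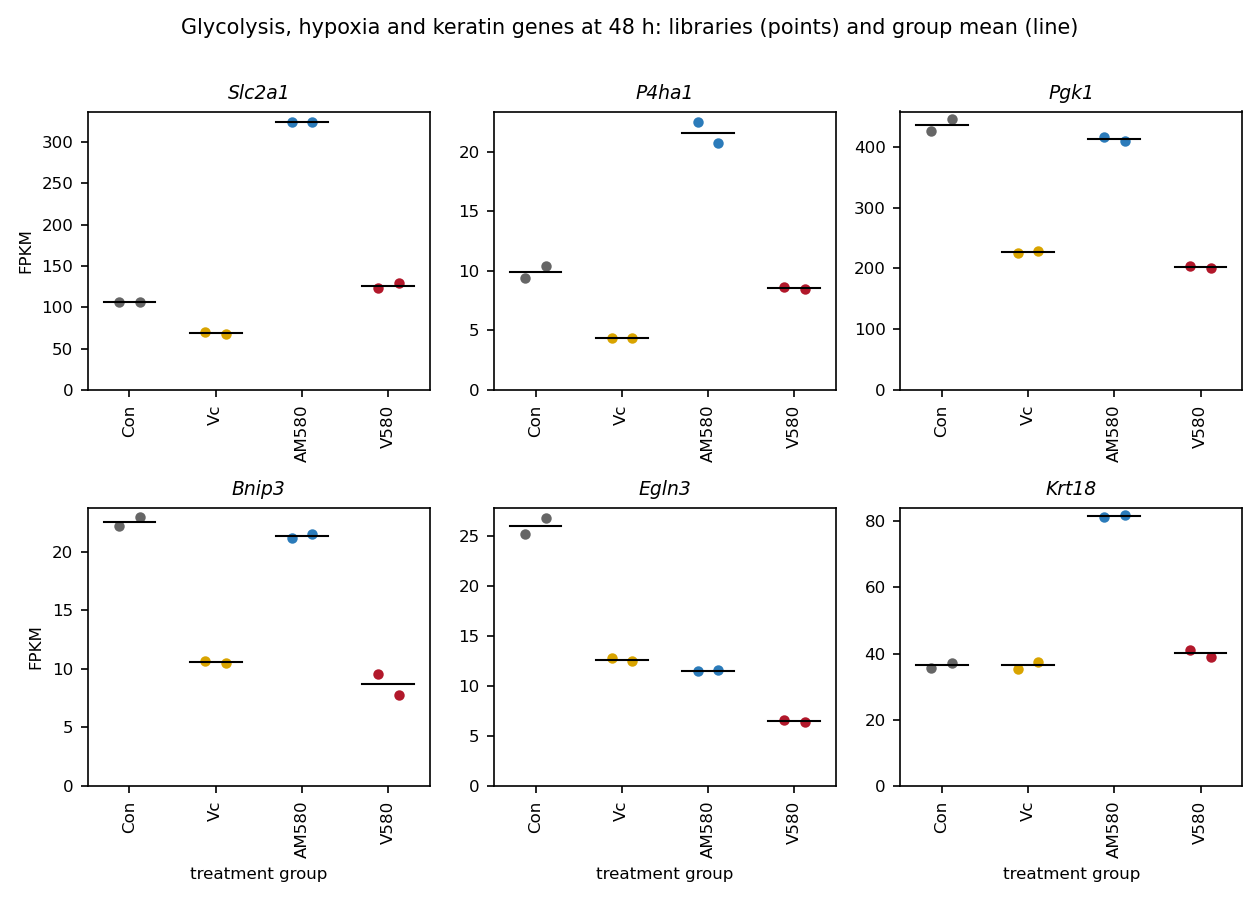
FPKM at 48 h on a linear axis from 0 of Slc2a1, P4ha1, Pgk1, Bnip3, Egln3 and Krt18 in the Con, Vc, AM580 and V580 libraries, with points for libraries and lines for the means of 2. Slc2a1, P4ha1 and Krt18 peak with AM580 alone, and Pgk1 and Bnip3 are low with Vc and with V580.

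Whether the combination differed from the sum of its compounds was tested on the log2 scale, as V580 minus AM580 minus Vc plus Con. The test called 13 genes (0.122%), 5 above the sum (0.047%) and 8 below it (0.0752%). Single libraries moved this split, from 3 above and 11 below without V580 replicate 2, or 3 and 9 without Con replicate 2, to 8 and 8 without AM580 replicate 1. Above the sum lay Zscan4f (1.33), Mep1b (1.11), Arl4d (1.06) and the unnamed models Gm21319 and Gm7102, which have near-identical copies. Krt18 lay below the sum, at -1.003. Efnb1, the ligand ephrin-B1, was at 2.54 and 2.42 FPKM in Con, 3.71 and 4.0 FPKM with Vc, 32.0 and 31.7 FPKM with AM580 and 20.03 and 21.1 FPKM in V580, a departure of -1.09. Ackr3, a scavenging chemokine receptor, was at 0.992 and 0.88 FPKM in Con, 1.55 and 1.65 FPKM with Vc, 3.18 and 3.72 FPKM with AM580 and 1.84 and 1.59 FPKM in V580, a departure of -1.14. For both genes each compound alone gave a higher level than Con, and V580 lay below AM580 alone. The other genes below the sum were Srgn, Trh, Zfp36l3, Prom1 and Ephx2. By the adjusted p alone 384 genes departed from the sum (3.61%), 113 above it (1.06%) and 271 below it (2.55%).

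The difference between V580 and Con was larger at 48 h than at 24 h. V580 against Con at 24 h called 74 genes (0.695%), 50 higher (0.47%) and 24 lower (0.225%), with other libraries of both groups. Of the 196 genes called higher at 48 h, 29 were also called higher at 24 h, which is 14.8% of the 48 h list and 58% of the 24 h list. Of the 143 called lower, 14 were called lower at 24 h, 9.79% of the 48 h list and 58.3% of the 24 h list. The median log2 difference of the 196 genes was 0.495 at 24 h and 1.35 at 48 h, and that of the 143 genes was -0.443 and -1.25, where the 48 h values chose the genes. The test of the change itself called 195 genes (1.83%), 124 toward higher (1.16%) and 71 toward lower (0.667%). Cyp26a1 was at 4.59 and 4.93 FPKM in Con and 22.4 and 21.5 FPKM in V580 at 24 h, so it was higher at 24 h and its difference then grew. Hoxb4 was at 0.733 and 0.935 FPKM in Con and at 2.92 and 2.72 FPKM in V580 at 24 h. Mycn was at 69.1 and 66.5 FPKM in Con and at 20.9 and 20.5 FPKM in V580 at 24 h, and Foxd3 at 43.6 and 44.6 FPKM and at 25.7 and 27.0 FPKM. Nanog at 24 h was higher in V580, at 47.1 and 50.2 FPKM against 32.5 and 31.9 FPKM in Con, whereas at 48 h the V580 libraries lay just under the Con libraries.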

How the data were processed

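RNA libraries (poly-A selected, NEBNext, Illumina HiSeq) were aligned to mm10. The submitters' processing notes name Trim Galore, FastQC, HISAT2, SAMtools, featureCounts and RSEM. The authors deposited FPKM values for 13682 genes in 31 columns; the FPKM step itself is not described in the sources used here. Columns headed 580 were taken as AM580 and those headed C as Vc. Many genes are not listed in the table and were not analysed here.

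The 16 libraries of Con, Vc, AM580 and V580 at 24 h and 48 h (8 groups of 2) were fitted together with limma 3.58.1 (trend) in R 4.3.3 on log2(FPKM + 1), for 10644 genes with at least 1 FPKM in at least 2 libraries. Residual degrees of freedom were 8. A gene was called when the Benjamini-Hochberg adjusted p was under 0.05 and its change reached 2-fold, a threshold taken from the study, whose own test takes counts and was not run. Controls were grouped by their labels (24 h and 48 h), although the study's text describes the control cells as day 0. Depth was estimated from the steps between low FPKM values, of which 96.7% to 98.7% were whole fragments within 0.05. FPKM keeps no counting error, and intervals are limma's.

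Genes were named by rule. The rule took genes the study names for the induction and the 10 largest called rises and falls (no overlap between groups, higher mean at least 5 FPKM). It also took up to 4 called members of each list with its defining markers, and the 5 largest rises and falls against AM580. Other genes were chosen after their values were seen, namely the non-additive genes, members named beside a list and some shown for contrast. The groups, genes and lists were chosen with earlier results of these data known. Of 568 list entries in 26 lists, 437 were in the table. Gene positions are from GRCm38, and promoter sequences were read with Python 3.11.15. Replicate numbers did not pair the samples. Alternatives were another pseudocount, filters, scalings, fewer libraries, a replicate block and each library left out. Some genes that the rule names are not reported here.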

Additional observations from a re-analysis of the deposited data

Results flagged for a closer look

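The difference between V580 and Con was tested against itself at the other time, and 195 genes differed by at least 2-fold between 24 h and 48 h. Among the named genes, the log2 difference was larger at 48 h by 4.46 for Hoxb9, 4.32 for Zfp703, 4.04 for Cyp26a1, 4.02 for Hoxb4, 3.93 for Hoxb8, 3.86 for Hoxb5 and 3.76 for Hoxb6. It was larger by 1.13 for Pmp22 and 1.03 for Gata4. For the genes that fell, the log2 change from 24 h to 48 h was -3.0 for Foxd3, -2.33 for Sema6a, -2.31 for Ifitm1, -2.21 for Mycn, -2.07 for Dnmt3b, -2.05 for Pim2, -1.94 for Sall1, -1.61 for Hes6, -1.59 for Slc27a2 and -1.25 for Enpp2. In each named case the limma adjusted p of the change was below 0.05, and each time had 2 libraries per group. Apart from Gata4, these genes were named for their difference at 48 h, so a smaller difference at 24 h is in part how they were chosen.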

How the results depend on the processing

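Counts of called genes are given in the order V580 against Con, AM580 and Vc, the departure from the sum, and the change from 24 h to 48 h. They were 339, 28, 297, 13 and 195. With a pseudocount of 0.1 they were 670, 83, 568, 35 and 462, and with no fold threshold 6078, 2046, 5728, 384 and 3612. With no fold threshold 45.3% of the genes called against Con were higher, compared with 57.8% otherwise. A filter at 5 FPKM left 7 genes departing from the sum. Leaving out 1 library at a time gave 339 to 346, 27 to 31, 294 to 305, 12 to 18, and 197 to 205, where a lone library was assumed to vary like the other groups. Each of these counts was within 1.5 times of its main value under the other scalings, filters and library choices. Replicate numbers did not pair the samples (correlation of deviations 0.0036 for V580 and Con at 48 h, and -0.424 to 0.209 over all 28 pairs of groups, with 7 over 0.1), and the replicate block left the counts at 339, 28, 297, 13 and 195. Under quantile normalization the sign turned for 4 uncalled values, Nanog (0.000216), Postn (-0.0672), Pax6 (-0.0234) and Ephx2 (-0.0206), and the calls of Tdgf1 (-0.90), Pgk1 (-0.91), Cubn (0.97) and Gata6 (0.95) were lost; the cause was not tested. Of 61 called genes followed through the settings, 56 were called in every setting in which they were tested. The filter at 5 FPKM left low genes such as Car9 untested. Not all called genes described above were among the 61. With 2 libraries per group and estimated depths of 16400000 to 22300000 fragments, genes under 1 FPKM are limited by few fragments.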

Other observations

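Over the tested genes with a known chromosome, the 347 genes of the X chromosome had a median log2 difference V580 minus Con at 48 h of -0.12, while the medians of the 19 autosomes lay between -0.069 and 0.025. Of the X genes 18 (5.19%) were called lower and 9 higher, against 124 of 10147 autosomal genes (1.22%) called lower and 183 called higher. The X median was -0.079 at 24 h (autosomes -0.037 to 0.017) and -0.10 for V580 against Vc (autosomes -0.055 to 0.024). It lay inside the autosomal range for AM580 against Con (-0.041, autosomes -0.067 to 0.021) and for Vc against Con (-0.0077, autosomes -0.016 to 0.018). For AM580 against Con 15 X genes were called higher and 9 (2.59%) lower, against 230 and 87 (0.857%) autosomal genes. For V580 against Vc 9 X genes were called higher and 11 (3.17%) lower, against 168 and 101 (0.995%) autosomal genes. At 24 h V580 against Con had 2 X genes called higher and 1 (0.288%) lower, against 48 and 23 (0.227%) autosomal genes. In each comparison whose calls are given here, the share of X genes called higher was also above that of autosomal genes. Of the genes described above, Pim2 and Pgk1, which fell, Efnb1, which rose, and Zfp36l3 are X-linked. Rlim, the single tested gene of the X inactivation list, had a log2 difference of -0.60 and was not called, and Xist was not analysed here.

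Rec8, a cohesin subunit of meiosis, was the germ cell gene called higher, from 4.18 and 4.56 FPKM in Con to 12.4 and 13.3 FPKM in V580, 1 of 8 tested, while 4 were higher and 3 lower by the adjusted p alone. The mean of Pou5f1 in the V580 cultures was 3.56, 0.367, 0.416 and 0.374 FPKM at days 4, 6, 8 and 10, which were sequenced as separate samples of the same table.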
